A study of Saccharomyces cerevisiae with 4 samples.

Results

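The phosphate uptake and polyphosphate regulon was described here through 10 genes: PHO84, PHO89, PHO5, PHO11, PHO12, PHO8, PHO81, SPL2, VTC3 and VTC4. They were taken by systematic identifier from a table of 6679, and all 10 were listed. Poly(A) RNA was measured in vegetatively growing budding yeast (Saccharomyces cerevisiae) of the SK1 strain, with a genotype given as WT for every library, to ask what high levels of exogenously driven, spliced HAC1 mRNA change in growing cells. From that mRNA comes Hac1, the factor that switches on the unfolded protein response of the endoplasmic reticulum. The vehicle group was EtOH, volume matched to 20 nM and to 40 nM of inducer. The inducer group was bEST at 20 nM and at 40 nM, a name that the labels do not spell out. All cells grew in YPD, a rich medium, at 30 degrees and were harvested in exponential phase. The labels do not say how HAC1 was driven and name no separate cultures within a group. In each group the 20 nM and 40 nM libraries were pooled as the 2 replicates, so any effect of dose is part of their spread. That spread, which can otherwise be technical, underlies the SDs and the p-values of inducer against vehicle below. Limma also lets the variance follow the level over all tested genes. Fits that do not use a gene's own spread are named further on.

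Yeast keeps its phosphate supply through the PHO pathway. When phosphate is plentiful, the kinase Pho85 with its cyclin Pho80 phosphorylates the transcription factor Pho4 and keeps it out of the nucleus. When phosphate is scarce, the inhibitor Pho81 blocks that kinase, and Pho4 turns on high-affinity transporters, secreted acid phosphatases and the vacuolar complex that stores phosphate as polyphosphate. Pho4 binds the bases CACGTG and, less tightly, CACGTT.

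Each of the 10 genes had at least 1 CACGTG in the 600 bases before its start codon in the R64 reference, which is the S288C strain and not SK1. Over 5963 genes 7.24% had one in such a window. Both strands were searched, CACGTG reads the same on either, and no match overlapped another. CACGTT lay before 8 of the 10 genes, against 18.8% of all genes. CAGCGTG, a form of the element bound by Hac1, lay before 0 of the 10 and 3.04% of all genes, while KAR2, a known Hac1 target, had 1. These matches are letters and not measured binding, and the genes are known for their regulation by phosphate, so the count is a description. SPL2 had 4 copies of CACGTG, PHO84, VTC3 and VTC4 had 2 each, and the others had 1.

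Stretches before 4 genes are shown, read on the gene's strand from R64, with matches to CACGTG or CACGTT on either strand in capitals. They were chosen because PHO84 fell, VTC3 was the one member above vehicle at each dose, SPL2 had the most sites and PHO5 is the classic gene of the pathway. The PHO84 stretch is chrXIII:26051-26250, the SPL2 stretch chrVIII:375221-375490, the PHO5 stretch chrII:431152-431351 and the VTC3 stretch chrXVI:517269-517418, all on the minus strand. They begin 450, 390, 400 and 400 bases before the start codon. That of PHO84 overlaps YML122C, an open reading frame annotated in R64, and the others overlap no coding sequence.
PHO84: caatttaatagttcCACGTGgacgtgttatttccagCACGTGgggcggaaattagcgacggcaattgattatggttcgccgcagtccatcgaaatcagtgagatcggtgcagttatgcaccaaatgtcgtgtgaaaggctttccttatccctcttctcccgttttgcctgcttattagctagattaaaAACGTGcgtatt
SPL2: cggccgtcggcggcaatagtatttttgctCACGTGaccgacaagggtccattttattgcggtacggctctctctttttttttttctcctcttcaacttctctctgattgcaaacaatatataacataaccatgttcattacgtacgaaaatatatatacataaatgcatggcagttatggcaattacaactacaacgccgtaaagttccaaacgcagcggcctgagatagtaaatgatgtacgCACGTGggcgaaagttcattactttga
PHO5: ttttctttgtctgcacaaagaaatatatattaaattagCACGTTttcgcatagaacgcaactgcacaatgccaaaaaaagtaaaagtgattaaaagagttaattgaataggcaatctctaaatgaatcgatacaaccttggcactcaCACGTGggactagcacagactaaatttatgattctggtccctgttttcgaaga
VTC3: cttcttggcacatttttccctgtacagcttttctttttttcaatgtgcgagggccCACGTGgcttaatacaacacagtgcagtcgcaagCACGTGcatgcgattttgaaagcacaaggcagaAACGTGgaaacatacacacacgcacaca
The PHO84 and VTC3 stretches both hold a pair of CACGTG close together, as does the window of VTC4, 125 and 113 bases before its start codon. In the values given further on, PHO84 lay below vehicle, VTC3 lay above it and VTC4 overlapped it. The part of these sites in the values was not tested.

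**Figure D1:**
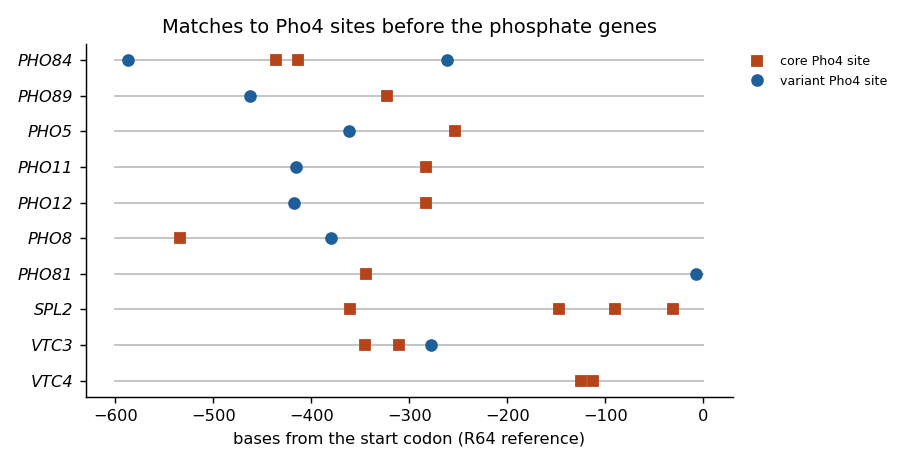
Matches to CACGTG (core, squares) and CACGTT (variant, circles) in the 600 bases before the start codon of each gene in R64, by distance of the match's first base from the start codon. Every gene has at least 1 square, SPL2 has 4, and SPL2 and VTC4 have no circle.

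The deposited values were taken as RPKM, which scales reads by the length of the gene and the depth of the library. Depth, recovered from the steps in the values, was 1183000 to 4158500 reads a library and lowest in the 20 nM inducer library. HAC1 stood at 487 and 528 RPKM with vehicle and at 5922 and 3712 RPKM with inducer, so the labels of the groups hold for the driven gene. Of the 7 meiotic markers 3 were higher in both inducer libraries, 0 were lower and 4 overlapped. Of all identifiers above 0 in at least 1 library, 22.6% were higher in both and 22.2% lower. HOP1 went from 0.27 and 0.44 RPKM with vehicle to 13.5 and 12.2 RPKM with inducer. SPS1 went from 0.33 and 0.27 to 2.39 and 3.57 RPKM, and IME2 from 2.0 and 1.43 to 4.05 and 3.71 RPKM. The vehicle values of HOP1 and SPS1 rest on 1 or 2 reads each, and that of SPS1 with 20 nM inducer on 4. Of those that overlapped, IME1 was at 4.46 to 5.78 RPKM and DIT1 at 2.12 to 2.98 RPKM. NDT80 and SPO11 were at 0 to 0.66 and 0 to 1.35 RPKM. The 7 summed to 10.7 to 12.2 RPKM with vehicle and 28.2 to 28.6 with inducer. Of the 2 tested markers 1, HOP1, was called as higher. Mating-type genes moved with the inducer: 6 of 6 a-specific genes rose and 4 of 5 alpha-specific genes did, where 2.48% of all 5317 tested genes rose. The a-specific genes summed to 423 to 786 RPKM with vehicle and 2007 to 3145 with inducer, the alpha-specific genes to 37.2 to 47.7 and 481 to 837. Of the genes called, STE6, MF(ALPHA)1 and HOP1 reached 5 RPKM on average only through the inducer libraries. No marker of either mating type was at 0. The part of these shifts in the results on phosphate genes was not tested. In bulk RNA, fewer cells expressing a gene and less of its RNA per cell cannot be told apart.

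Genes that averaged 5 RPKM or more were tested with limma on log2(RPKM + 1), with Benjamini-Hochberg adjustment over all 5317 tested genes, and a gene rose or fell where the adjusted p was under 0.05. Of the 10 phosphate genes 6 were tested and 4 were too low. One, PHO84, fell, where 0.733% of all tested genes fell, and 0 rose. An unadjusted p under 0.05 was found for 3 of the 6 and for 16.3% of all tested genes. Limma-voom on recovered reads gave 1 fall and 1 rise, where 1.49% and 4.51% of all genes fell and rose. Both inducer libraries lay below both vehicle libraries for 5 of the 10 genes (22.2% of all identifiers above 0 in at least 1 library did) and above them for 1 (22.6%). The 5 include PHO11 and PHO12, which are too alike to count as separate genes here, and SPL2, with 1 read in the 20 nM inducer library. The tested members had a median log2 fold change of -0.44, and all tested genes one of -0.02. PHO84 and SPL2 reached a mean of 5 RPKM only through the vehicle libraries, since their inducer means were 4.81 and 4.51 RPKM.

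**Figure D2:**
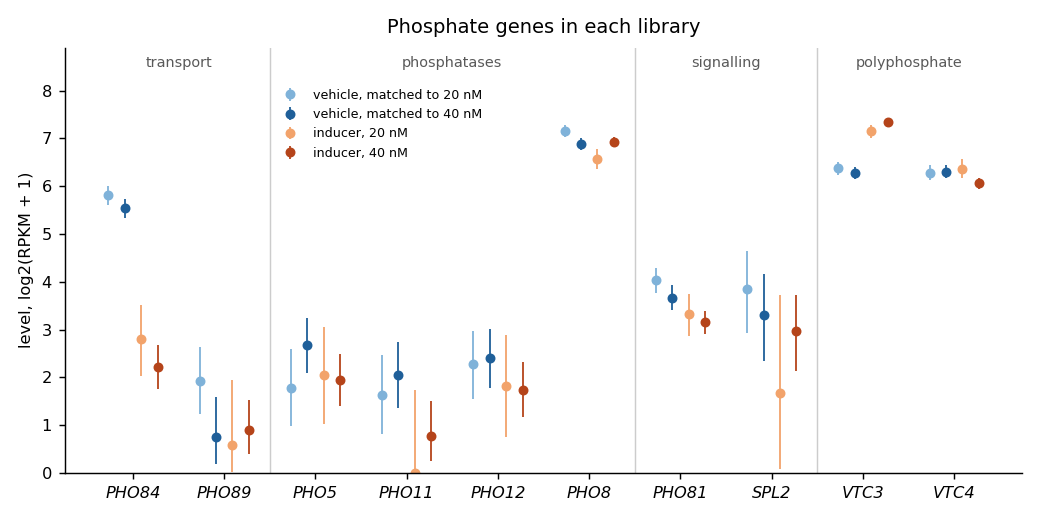
Level of each phosphate gene in each library as log2(RPKM + 1), grouped by role, with 95% Poisson intervals that cover counting error only. PHO84 falls from 55.0 and 45.4 RPKM to 5.95 and 3.67 RPKM, VTC3 lies higher in both inducer libraries, and PHO89, PHO5, PHO11 and PHO12 lie below 6 RPKM everywhere.

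PHO84 (YML123C), the high-affinity phosphate transporter of the plasma membrane, was the largest change among the members. It stood at 55.0 RPKM (200 reads) and 45.4 RPKM (201 reads) in the vehicle libraries and at 5.95 RPKM (12 reads) and 3.67 RPKM (26 reads) in the inducer libraries at 20 and 40 nM. Both inducer libraries were far below both vehicle libraries, and the lower value was at 40 nM. The group means of 50.2 ± 6.82 and 4.81 ± 1.62 RPKM (SD over the 20 and 40 nM libraries, n = 2) differed 10.4-fold. The log2 fold change was -3.16 (SE 0.30, 95% interval -3.88 to -2.44, limma adjusted p = 0.0035), which ranked 2 among 39 falls. PHO84 lay at percentiles 63.9 and 61.0 of all identifiers by level with vehicle and at 22.0 and 18.6 with inducer.

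The fall of PHO84 had much the same size at both doses, while HAC1 RNA was higher at 20 nM than at 40 nM. Its inducer level was 0.108 of the volume-matched vehicle level at 20 nM (95% counting interval 0.0549 to 0.193). The ratio was 0.0808 at 40 nM (0.0516 to 0.122). These intervals overlap, and with 1 library a treatment at each dose the difference was not tested. With any 1 library left out the fold change of PHO84 was -3.45 to -2.87. Such a fit leaves 1 library in a group, which is assumed to vary like those of the other group, here and for other genes.

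PHO89 (YBR296C), the other high-affinity phosphate transporter, which carries phosphate with sodium and works at alkaline pH, was low in all 4 libraries. It stood at 2.82 and 0.69 RPKM with vehicle and at 0.51 and 0.87 RPKM with inducer, from 10, 3, 1 and 6 reads. The groups overlapped, and the gene fell below the level filter. Its ratio to matched vehicle was 0.18 at 20 nM (95% counting interval 0.0042 to 1.27) and 1.25 at 40 nM (0.267 to 7.72). The interval at 40 nM lies above that of PHO84 at the same dose, and the one at 20 nM spans that of PHO84.

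Low-affinity phosphate transporters did not pass the test. PHO90 (YJL198W), a low-affinity plasma membrane transporter, stood at 75.4 and 72.3 RPKM with vehicle and at 87.3 and 66.2 RPKM with inducer. Its log2 fold change of 0.04 had a 95% interval of -0.52 to 0.60. PHO87 (YCR037C), another low-affinity transporter, had -0.03 (-0.54 to 0.48), with a range of 39.4 to 43.6 RPKM over the 4 libraries. Within a library, PHO84 was 0.73 and 0.63 times the RPKM of PHO90 with vehicle and 0.068 and 0.055 times with inducer. The high-affinity transporter thus went from a level near that of PHO90 to a small share of it, a ratio that library scaling does not touch. PHO90 and PHO87 were named after their values were seen. With 2 against 2 libraries an exact permutation test of such a ratio cannot go below p = 0.333.

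The secreted acid phosphatases PHO5 (YBR093C), PHO11 (YAR071W) and PHO12 (YHR215W), which free phosphate outside the cell, were low in every library. PHO5 stood at 2.44 and 5.44 RPKM with vehicle and at 3.14 and 2.86 RPKM with inducer, so the groups overlapped. PHO12 stood at 3.84 and 4.29 RPKM with vehicle and at 2.52 and 2.32 RPKM with inducer. PHO11 stood at 2.09 and 3.15 RPKM with vehicle and was at 0 and 0.72 RPKM with inducer. The inducer libraries were lower for PHO11 and PHO12, on 0 to 15 reads each. The 0 reads of PHO11 at 20 nM allow up to 1.89 RPKM (3 reads).

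PHO11 and PHO12 cannot be separated well in these data. Their coding sequences, both 1404 bases in R64, differ at 4 bases (99.7% identity), and 88.3% and 87.2% of their 50-base windows, the read length, occur elsewhere in the genome. PHO5 is 83.6% and 83.5% identical to them and 86.5% identical to PHO3, with 12.3% of its windows repeated. It shares 118 of 1355 windows with PHO3, which stood at 170 to 590 RPKM. How reads with several matches were counted is not given in the sources used here. Levels and ratios of PHO11 and PHO12 are thus uncertain, and the few reads of PHO5 may include some of PHO3. Added together, they held 17 and 26 reads with vehicle and 4 and 17 with inducer, or 5.93, 7.44, 2.52 and 3.04 RPKM. With no level filter the log2 fold changes were -1.45 for PHO11 (95% interval -2.79 to -0.11, limma adjusted p = 0.286), -0.57 for PHO12 (-1.51 to 0.37), -0.23 for PHO5 (-1.33 to 0.86) and -0.60 for PHO89 (-2.06 to 0.86). None of these 4 passed.

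PHO8 (YDR481C), the alkaline phosphatase of the vacuole, had the highest vehicle level of the members. It stood at 141 and 118 RPKM with vehicle and at 94.2 and 121 RPKM with inducer. The groups overlapped, with the 20 nM inducer library lowest. The log2 fold change was -0.27 (SE 0.24, 95% interval -0.85 to 0.30, limma adjusted p = 0.655).

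PHO81 and SPL2, the regulators among the members, lay lower in both inducer libraries without passing the test. PHO81 (YGR233C), the inhibitor of the Pho80-Pho85 kinase and itself a target of Pho4, stood at 15.4 and 11.7 RPKM with vehicle and at 8.99 and 7.88 RPKM with inducer. The groups did not overlap. The log2 fold change of PHO81 was -0.62 (SE 0.32, 95% interval -1.37 to 0.13, limma adjusted p = 0.403). SPL2 (YHR136C), a small protein that lowers low-affinity phosphate uptake when phosphate is scarce, stood at 13.3 and 8.95 RPKM with vehicle and at 2.18 and 6.83 RPKM with inducer, from 11, 9, 1 and 11 reads. The low SPL2 value at 20 nM is a single read, in the shallowest library. Its log2 fold change was -1.26 (SE 0.53, limma adjusted p = 0.304). Leaving out the 20 nM inducer library gave -0.61. Leaving out that of 40 nM gave -1.91, with an adjusted p of 0.0493 in limma. There the inducer group is the library with 1 read of SPL2, its own spread comes from the vehicle pair only, and 8.65% of all tested genes fell.

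VTC3 (YPL019C) went the other way from PHO84. It encodes a subunit of the VTC complex, the polyphosphate polymerase of the vacuole membrane. It stood at 82.0 and 76.2 RPKM with vehicle and at 141 and 160 RPKM with inducer, on 408 to 1631 reads. Both inducer libraries were higher, with ratios to matched vehicle of 1.72 (95% counting interval 1.50 to 1.97) at 20 nM and 2.10 (1.90 to 2.33) at 40 nM. The log2 fold change was 0.92 (SE 0.22, 95% interval 0.40 to 1.44), and the limma adjusted p of 0.0813 missed the threshold. The adjusted p of VTC3 was 0.0259 with limma-voom on recovered reads and 0.0444 without the 40 nM inducer library. In the latter fit the gene's own spread comes from the vehicle pair only (SE 0.16), and 6.26% of all tested genes rose.

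VTC4 (YJL012C), the catalytic subunit of the same complex, did not separate the groups. It stood at 76.8 and 77.8 RPKM with vehicle and at 81.5 and 65.7 RPKM with inducer. The inducer values lay on either side of the vehicle values, and the log2 fold change was -0.08 (SE 0.23, 95% interval -0.61 to 0.46, limma adjusted p = 0.912). Leaving out the 40 nM inducer library turned its sign, to 0.07.

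VTC1 and VTC2, of the same complex, lay below vehicle in both inducer libraries. VTC1 (YER072W), the small membrane subunit, stood at 368 and 372 RPKM with vehicle and at 210 and 264 RPKM with inducer, with a log2 fold change of -0.65 (SE 0.23, limma adjusted p = 0.215). VTC2 (YFL004W), which takes the place of VTC3 in a second form of the complex, stood at 116 and 94.3 RPKM with vehicle and at 80.8 and 78.3 RPKM with inducer, with -0.39 (SE 0.23, limma adjusted p = 0.467). Neither passed. With any 1 library left out the log2 fold change of VTC1 was -0.81 to -0.49. Relative to VTC2 in the same library, VTC3 was 0.71 and 0.81 with vehicle and 1.74 and 2.05 with inducer, as a ratio of RPKM. Relative to VTC4 it was 1.07 and 0.98 with vehicle and 1.73 and 2.44 with inducer. The alternative subunit that was the less abundant RNA with vehicle was thus the more abundant one in both inducer libraries. These ratios were among 8 computed after the values were seen.

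VTC3 shares its upstream region with CTF19 (YPL018W), a kinetochore gene transcribed away from it, with 632 bases between the start codons in R64 and no gene between. CTF19 stood at 4.02 and 3.30 RPKM with vehicle and at 10.5 and 7.78 RPKM with inducer, on 9 to 34 reads. Both neighbours were higher in both inducer libraries, though the log2 fold change of CTF19, 1.11 (SE 0.42), did not pass (limma adjusted p = 0.248). CTF19 reached the level filter only through the inducer libraries. It also overlaps the coding sequence of YPL017C in R64, and with the strand setting not known its reads may include reads of that gene. The same 2 copies of CACGTG lie before both genes.

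**Figure D3:**
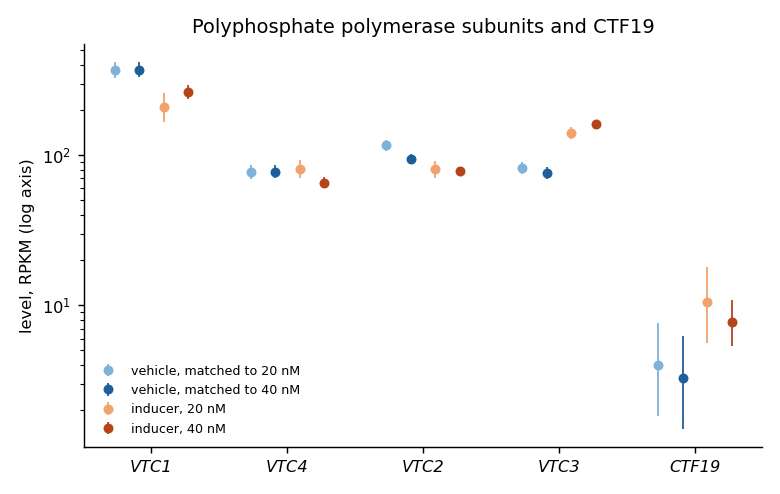
Level in RPKM on a log axis of the VTC subunits and of CTF19, the divergent neighbour of VTC3, in each library, with 95% Poisson intervals. VTC3 is higher in both inducer libraries, VTC1 and VTC2 are lower, and VTC4 overlaps between the groups.

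A further 30 genes, here called other genes of phosphate handling, were listed by role, and 29 were above the filter. The list includes 5 low-phosphate genes of other or unknown role: PHM6, PHM7, CTF19, HOR2 and GPD1. Of the 29 tested genes 1 rose and 1 fell, beside 2.48% and 0.733% of all tested genes, and their median log2 fold change was -0.03. The gene that fell was PHO3 (YBR092C), an acid phosphatase known to be repressed by thiamine rather than by phosphate. It stood at 549 and 590 RPKM with vehicle and at 170 and 202 RPKM with inducer (log2 fold change -1.61, SE 0.22, limma adjusted p = 0.0122). PHO3 lies next to PHO5 on the same strand, 446 bases away in R64, yet the RNA of PHO5 was at most 5.44 RPKM. Without the 40 nM vehicle library its adjusted p was 0.0534. PHO3 had no CACGTG or CACGTT in its window.

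The gene that rose was PHM7 (YOL084W), a membrane protein gene named for its response to phosphate. It stood at 0.48 and 0.26 RPKM with vehicle and at 12.5 and 8.32 RPKM with inducer. Its vehicle values rest on 3 and 2 reads, and its ratio to matched vehicle was 25.8 at 20 nM (95% counting interval 8.27 to 130) and 31.5 at 40 nM (8.51 to 264). The log2 fold change was 3.03 (SE 0.60, limma adjusted p = 0.0473). It passed the level filter only through the inducer libraries, and the call was lost without the 20 nM inducer library (0.114), at a pseudocount of 0.1 (0.107) and with median scaling (0.0522).

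Other genes with the widest values in their roles did not pass. GDE1 (YPL110C), which splits glycerophosphocholine, stood at 4.41 and 4.15 RPKM with vehicle and at 11.2 and 10.6 RPKM with inducer (log2 fold change 1.18, SE 0.37, limma adjusted p = 0.171). GDE1 reached the level filter only through the inducer libraries. With limma-voom its adjusted p was 0.0215, and in the other planned limma fits of GDE1 on all 4 libraries it was 0.124 to 0.183. GDE1 was the one gene of the 30 with CAGCGTG in its window. PHO86 (YJL117W), needed for Pho84 to leave the endoplasmic reticulum, stood at 253 and 267 RPKM with vehicle and at 154 and 207 RPKM with inducer (-0.54, SE 0.24, limma adjusted p = 0.343). PHO86 was lower at both doses. With any 1 library left out its log2 fold change was -0.75 to -0.32.

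PHO4 and PHO2, core regulators, separated the groups without passing the test. PHO4 (YFR034C), the transcription factor, lay lower in both inducer libraries, from 30.9 and 33.3 RPKM to 19.2 and 25.4 RPKM. Its log2 fold change was -0.52 (SE 0.24, 95% interval -1.10 to 0.06, limma adjusted p = 0.365). PHO2 (YDL106C), its partner factor, lay higher in both, from 10.7 and 13.6 RPKM to 19.9 and 15.5 RPKM. PHO2 had 0.50 (SE 0.29, 95% interval -0.18 to 1.19, limma adjusted p = 0.462). Neither interval excludes a larger change. Of the 7 signalling genes outside the members 0 passed, with log2 fold changes of -0.52 to 0.50. GIT1, a glycerophosphoinositol transporter, had -0.90 (SE 0.68), PHM6, a gene of unknown function, -0.95 (SE 0.64), and PHO13, a phosphatase of the cytosol, 0.42 (SE 0.26). GIT1 and PHM6 reached the level filter only through the vehicle libraries, with inducer means of 3.86 and 4.48 RPKM. GIT1 rested on 2 reads in the 20 nM inducer library and had 0.02 without it. PHM6, with 10, 3, 1 and 6 reads, had -0.04 without the 20 nM vehicle library and -1.86 without that of 40 nM. PHO13 had 0.71 without the 20 nM inducer library and 0.13 without that of 40 nM.

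**Figure D4:**
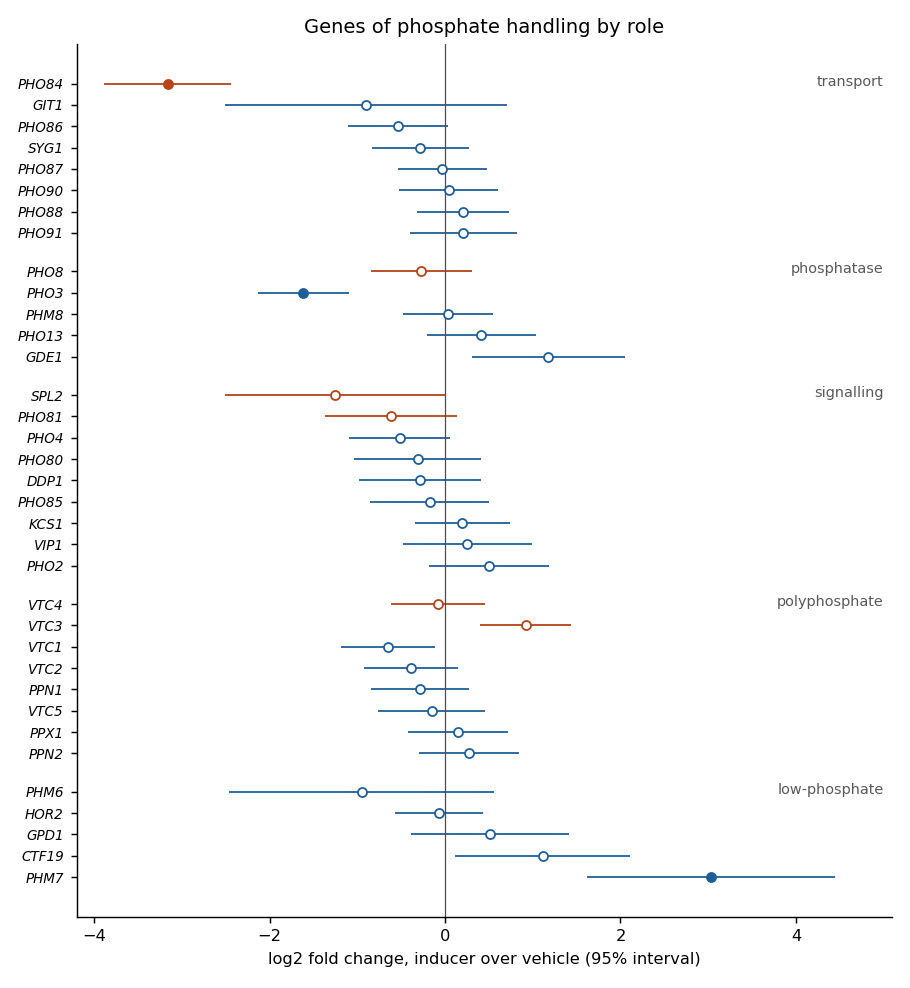
Log2 fold change of inducer over vehicle with 95% limma intervals for the tested members (red) and the other genes of phosphate handling (blue), by role. Filled points passed an adjusted p of 0.05: PHO84 and PHO3 fell and PHM7 rose.

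**Figure D5:**
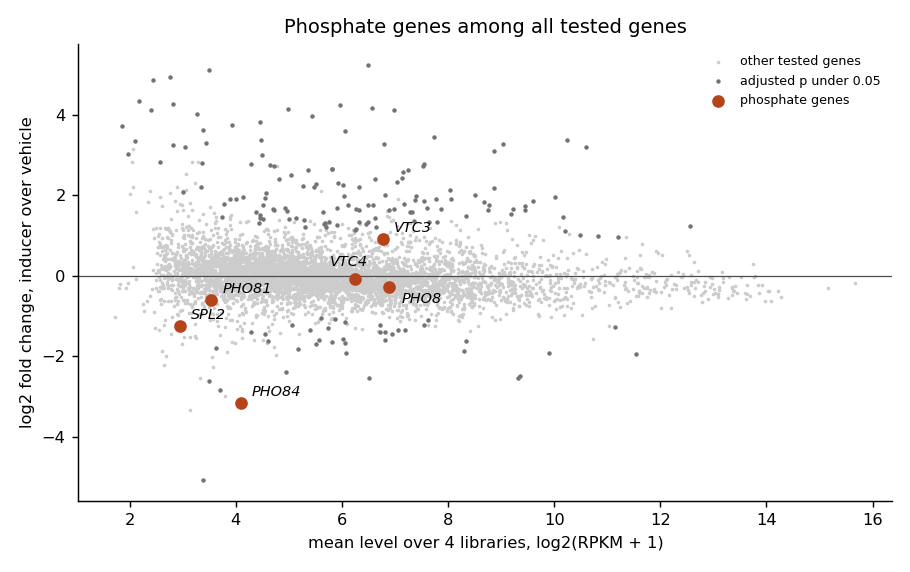
Log2 fold change of inducer over vehicle against mean level for all 5317 tested genes, with the 6 tested phosphate genes in red and calls in dark grey. PHO84 at -3.16 lies among the lowest points, and the other members lie between -1.26 and 0.92.

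The order of the members by vehicle mean was PHO8 (129 RPKM), VTC3 (79.1), VTC4 (77.3), PHO84 (50.2), PHO81 (13.5), SPL2 (11.1), PHO12 (4.07), PHO5 (3.94), PHO11 (2.62) and PHO89 (1.75). VTC3 and VTC4 overlapped in their libraries, as did PHO81 and SPL2 and each neighbouring pair from PHO12 to PHO89. With inducer the order was VTC3 (151), PHO8 (107), VTC4 (73.6), PHO81 (8.44), PHO84 (4.81), SPL2 (4.51), PHO5 (3.0), PHO12 (2.42), PHO89 (0.69) and PHO11 (0.36). PHO84 had left the group of well-expressed members and stood beside PHO81 and SPL2, overlapping SPL2 in its libraries.

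By mean-centred log2(RPKM + 1) over the 4 libraries, the tested genes nearest to PHO84 were SNZ1 (Euclidean distance 0.70), LEU1 (0.74), SNO1 (0.81), HXT4 (1.03) and OAC1 (1.22). None is a gene of the phosphate lists. SNZ1, of vitamin B6 synthesis, stood at 216, 222, 39.5 and 34.0 RPKM in the order vehicle at 20 and 40 nM and inducer at 20 and 40 nM. Over 4 libraries such likeness rests mainly on the shared fall.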

How the data were processed

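The authors deposited 1 table of 6679 systematic identifiers with 1 value per library and no unit in its header. The deposited values were taken as RPKM: multiplied by the coding length less 60 bases, 93.1% to 93.8% of values of up to 50 reads lay within 0.05 of a whole read. Directional poly(A) libraries were read as 50-base single ends, per the labels' protocols. STAR and SAMtools are named in the submitters' processing notes. Counting tool, strand setting, build and annotation are not given here by any source. R64 matched 5994 identifiers and supplied symbols, lengths and sequences. No other coding sequence overlapped a member in R64.

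Inducer was compared with vehicle by fitting log2(RPKM + 1) in limma 3.58.1 (R 4.3.3), letting the variance follow the level, without covariates, in genes averaging 5 RPKM or more. Fold changes on this scale understate those of low genes. The planned test for normalised values was used. Limma-voom on recovered reads was an alternative. Doses were described by ratios, with exact 95% intervals for counting error only. Reads have no molecular identifiers. The fit was tested on simulated data with large changes only, none in low genes and no effect of dose. That test thus does not cover small changes such as that of VTC3, or low genes. The members, lists and alternatives were chosen with earlier results of these data known. Genes named by rule were all members, HAC1, KAR2, other phosphate genes past the threshold, the 2 widest others per role and the 5 nearest to PHO84. PHO90, PHO87, PHM8, PPN1, PPN2 and DIA3 were named outside this rule. The sequence window of 600 bases was chosen after the files were seen.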

Additional observations from a re-analysis of the deposited data

Results flagged for a closer look

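In 4 of the 10 phosphate genes (PHO89, PHO5, PHO8 and VTC4) the ratio of inducer to its volume-matched vehicle went in opposite directions at 20 and 40 nM. The difference between doses was not tested, since each dose has 1 library a treatment. On log2(RPKM + 1), the ratio at 40 nM minus that at 20 nM was 0.61 for PHO8, with ratios of 0.668 (95% counting interval 0.560 to 0.793) at 20 nM and 1.03 (0.916 to 1.15) at 40 nM. It was -0.32 for VTC4, with 1.06 (0.887 to 1.26) and 0.845 (0.744 to 0.960). It was 1.48 for PHO89 and -1.01 for PHO5, which rest on 1 to 10 and 5 to 19 reads a library. The counting intervals of the ratios at both doses overlap for PHO89 and PHO5, as they do for VTC4, and not for PHO8. In each of the 4 genes the interval of at least 1 dose includes a ratio of 1, so opposite directions are not shown beyond counting error. The share of all genes with opposite directions was not counted.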

How the results depend on the processing

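PHO84 fell under all 12 alternatives, with log2 fold changes of -3.55 to -2.50. Of the phosphate genes 0 rose and 1 fell in the comparison as reported. The count of rises was 1 with limma-voom on recovered reads and 1 with crossed doses, and 0 to 1 with 1 library left out. The count of falls was 1 to 2 with 1 library left out. Of the other genes of phosphate handling 1 rose, with 0 at a pseudocount of 0.1, 0 at a mean of at least 20 RPKM (where PHM7 is not tested), 0 with median scaling, 2 with limma-voom and 0 to 2 with 1 library left out. Their count of falls was 0 to 3 with 1 library left out. With 1 library left out the log2 fold change of VTC4 ran from -0.231 to 0.0746 and that of GIT1 from -1.81 to 0.0176, so that 2 signs reversed, VTC4 without the 40 nM and GIT1 without the 20 nM inducer library. The cause was not tested. Over all tested genes 132 rose and 39 fell, against 333 and 460 without the 40 nM inducer library, 233 and 77 with limma-voom, and 153 and 66 with median scaling.

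With dose as a replicate block 0 phosphate genes rose and 1 fell, and over all genes 243 rose and 123 fell. Libraries of the same dose deviated in opposite directions (r = -0.21 across 5317 genes), and crossing the doses, an alternative chosen after seeing the data, gave 363 rises and 305 falls. The labels share only a dose and not a stated batch. In the block fits and those without a vehicle library limma gave every gene the spread of the trend, so their p-values do not use a gene's own spread. A fit without an inducer library takes each gene's own spread from the vehicle pair only. Depth limits PHO89, PHO5, PHO11, PHO12, SPL2 and PHM6, with at most 19 reads in any library.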

Other observations

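DIA3, an acid phosphatase gene below the level filter and not tested, stood at 1.39 and 0 RPKM with vehicle and at 3.76 and 3.75 RPKM with inducer, from 4, 0, 6 and 21 reads. PHM8, a phosphatase that responds to low phosphate, was among the most abundant of the listed phosphate genes at 1079, 1111, 978 and 1279 RPKM in the order vehicle at 20 and 40 nM and inducer at 20 and 40 nM. Its log2 fold change was 0.03 (95% interval -0.48 to 0.54). The polyphosphatase gene PPN1 stood at 131, 132, 94.2 and 123 RPKM, with -0.29 (-0.85 to 0.27), and PPN2 at 136, 126, 138 and 182 RPKM, with 0.27 (-0.30 to 0.84).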
